A study of Mus musculus with 8 samples.

Results

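Photoreceptors burn glucose at a high rate and turn much of it into lactate even when oxygen is present. Glucose enters the outer retina through the transporter GLUT1 (gene Slc2a1), is trapped by hexokinase (Hk2 in photoreceptors) and is passed along the glycolytic chain, whose lactate leaves through monocarboxylate transporters such as MCT1 (Slc16a1) that need basigin (Bsg) to reach the membrane. Rods also secrete the thioredoxin-like factor encoded by Nxnl1, known as rod-derived cone viability factor, which binds basigin on cones and favours their glucose uptake. The 10 genes described here cover this route: Slc2a1, Hk2, Pfkp, Aldoc, Eno1, Pkm, Ldha, Slc16a1, Bsg and Nxnl1. They were chosen by symbol, each symbol matched 1 Ensembl identifier, and they are 10 of the 57010 genes of the count table.

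RNA of whole retina, 1 retina per sample, was sequenced from wild-type mice at postnatal day 15 (WT P15) and from mice homozygous for rd10 at postnatal days 15, 18 and 21 (rd10 P15, rd10 P18 and rd10 P21), with 2 libraries per group and 8 in all. The rd10 allele is a missense mutation of Pde6b, the rod phosphodiesterase subunit, and the mutant animals lose rods in the weeks after eye opening. The methods name littermates as wild-type controls and C57BL/6J as the strain of purchased wild-type mice. No wild-type retina of day 18 or 21 was used here, so that age and genotype cannot be told apart in the comparisons of rd10 P18 and rd10 P21 with WT P15, and these comparisons share the same 2 control libraries.

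Libraries held between 28076947 and 33724562 counts, and the 10 genes took between 0.887% and 1.06% of them. Levels are given as CPM, read counts scaled to a common library size and by TMM, and a gene was called when the adjusted p of edgeR's quasi-likelihood test, corrected over 20457 genes, was under 0.05 and the absolute log2 fold change over 1. Y-linked genes had at most 19 counts in 4 libraries (both of WT P15 and the second library of each older rd10 group) and at least 5530 in the other 4 libraries, which include both rd10 P15 libraries, so that genotype and this difference cannot be told apart at P15. The 2 libraries of rd10 P18 differed most from each other, with a chi-square per gene of 96.6 beside 22.9 to 37.2 in the other groups. Markers of rods, cones, Muller glia and bipolar cells were present in every library, as the tissue label states, and the 7 lens markers summed to at most 4.18 CPM. The 10 markers of the retinal pigment epithelium summed to 44.6 and 168 CPM in WT P15, 236 and 276 CPM in rd10 P15, and between 23.8 and 42.0 CPM in the 4 libraries of rd10 P18 and rd10 P21, which concerns Slc2a1, Slc16a1 and Bsg, genes that this epithelium also expresses.

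Of the 10 genes, Nxnl1 was the one that passed the test, in rd10 P21 against WT P15. No gene of the 10 was called by edgeR in rd10 P15 against WT P15 (3 had an unadjusted p under 0.05, DESeq2 called 1, and 0.230% of all genes were called) or in rd10 P18 against WT P15 (3 had an unadjusted p under 0.05, DESeq2 called 0, and 1.48% of all genes were called). In rd10 P21 against WT P15 the count was 1 of 10, beside 0.386% of all genes. Among rd10 ages edgeR called none of them, and neither did DESeq2: 3 had an unadjusted p under 0.05 in P18 against P15, 4 in P21 against P15 and 1 in P21 against P18, and the shares of all genes called by edgeR were 0.591%, 0.401% and 0.0196%. Of all 20457 genes, 2523, 3563 and 2416 had an unadjusted edgeR p under 0.05 at P15, P18 and P21 against WT P15. DESeq2 called 438, 955 and 573 genes there. In the 3 comparisons among rd10 ages, in the order above, 2638, 2624 and 2219 genes had such a p. DESeq2 called 597, 534 and 114. The median log2 fold change of the 10 genes against WT P15 was -0.18 at P15, -0.07 at P18 and -0.13 at P21, beside -0.01, 0.01 and 0.00 for all genes tested. The libraries of the groups did not overlap for 9 of the 10 genes at P15, 5 at P18 and 7 at P21, where 49.7%, 47.0% and 49.2% of all genes did not overlap either.

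**Figure D1:**
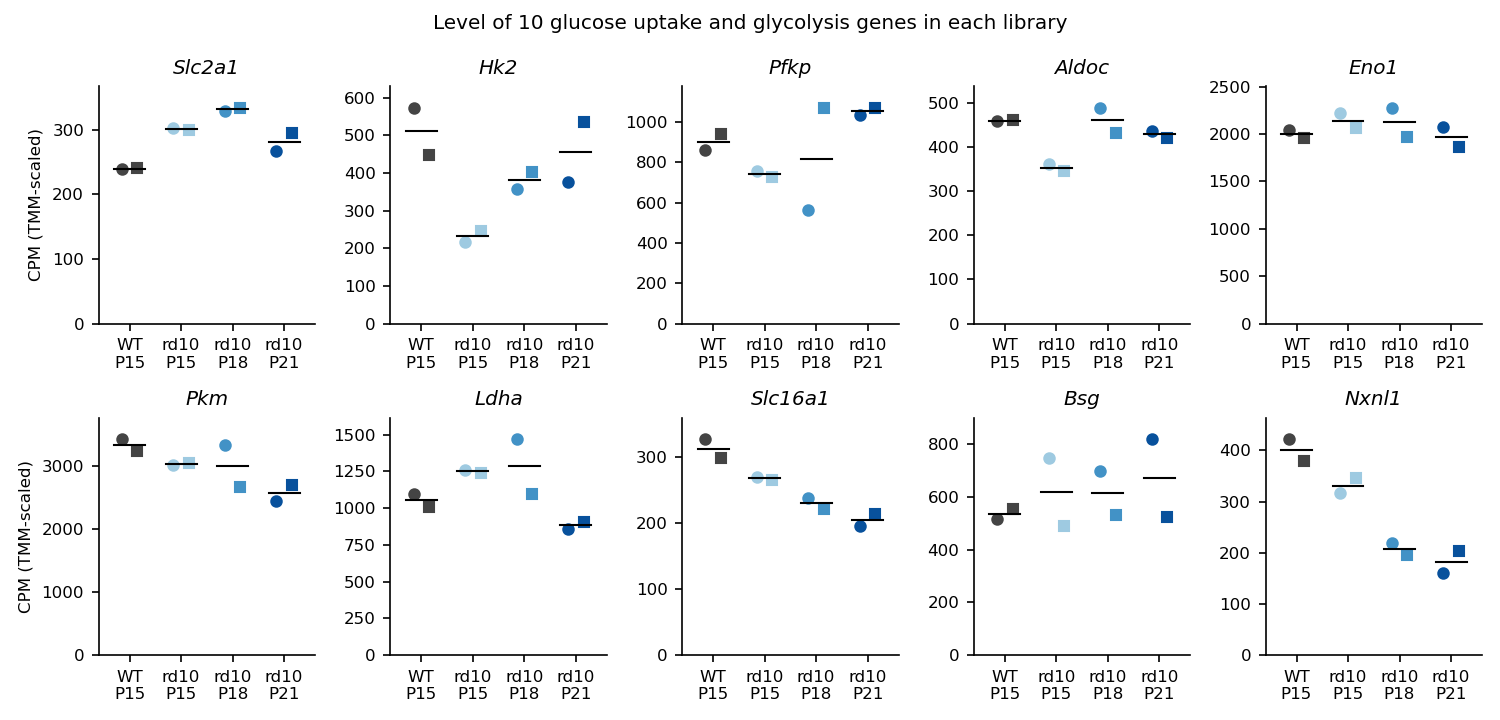
TMM-scaled CPM (vertical axes, from 0) of the 10 genes in each of the 8 libraries, by group. Circles are replicate 1, squares replicate 2 and lines group means. Means of Nxnl1 and Slc16a1 step down from group to group, although the rd10 P18 and rd10 P21 libraries of Nxnl1 overlap. Hk2 and Aldoc are lowest in rd10 P15, and Bsg differs between the 2 libraries of each rd10 group.

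Nxnl1 (ENSMUSG00000034829, chr8:71560555-71566601, minus strand, GRCm38, 2 exon blocks) is transcribed in rods. It stood at 422 and 379 CPM in WT P15, 316 and 346 CPM in rd10 P15, 219 and 196 CPM in rd10 P18 and 160.4 and 203 CPM in rd10 P21. Each rd10 library was below both WT P15 libraries, and both older rd10 groups were below rd10 P15. The 2 older groups overlapped with each other. Group means were 401 ± 30.3, 331 ± 20.8, 207 ± 16.2 and 182 ± 30.3 CPM (SD, n = 2 each).

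Against WT P15, the log2 fold change of Nxnl1 was -0.28 ± 0.16 (SE) at P15 (edgeR adjusted p = 0.532), -0.95 ± 0.16 at P18 (adjusted p = 0.0298) and -1.14 ± 0.16 at P21 (adjusted p = 0.0351). At P18 the adjusted p was below the threshold and the fold was not past it, while at P21 both were, at 0.454 of the WT P15 level. The P18 value was -1.03 without rd10 P18 replicate 1 and -0.87 without replicate 2. Its edgeR adjusted p rose above the threshold with a replicate block (0.0502) and with a term for the Y-linked counts (0.0635). With only the 4 libraries compared it was 0.0958. Within rd10, the level of Nxnl1 at P21 was lower than at P15 by a log2 fold change of -0.86 ± 0.16. This did not pass (edgeR adjusted p = 0.0694). With DESeq2 the adjusted p of this difference was 0.000179, and the fold was below the threshold. DESeq2 gave the P21 difference from WT P15 an adjusted p of 7.77e-08. The edgeR call at P21 was lost when either WT P15 library (adjusted p = 0.214 without replicate 1 and 0.0946 without replicate 2), either rd10 P15 library (0.0868 and 0.0864) or rd10 P21 replicate 1 (0.192) was left out, with log2 fold changes between -1.31 and -0.98 over the 8 omissions. It was also lost with a term for the Y-linked counts (log2 fold change -1.10, edgeR adjusted p = 0.0639).

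Rod markers moved with Nxnl1. The 14 rod markers, which include the transducin subunit Gnat1, summed to 36602 and 32343 CPM in WT P15, 25831 and 27328 CPM in rd10 P15, 21840 and 20312 CPM in rd10 P18 and 15923 and 18904 CPM in rd10 P21. Of these markers 0 were called at P15 by edgeR (7 had an unadjusted p under 0.05 and DESeq2 called 1). At P18 edgeR called 2 lower, Nr2e3 and Reep6 (9 had such a p and DESeq2 called 3). At P21 edgeR called 3 lower, Gnat1, Cngb1 and Reep6 (14 had such a p and DESeq2 called 7). The median log2 fold change of the 14 markers was -0.39, -0.70 and -1.01 at P15, P18 and P21. Per 1000 CPM of rod markers, Nxnl1 stood at 11.5 and 11.7 CPM in WT P15, 12.2 and 12.6 CPM in rd10 P15, 10.02 and 9.64 CPM in rd10 P18 and 10.1 and 10.7 CPM in rd10 P21. This ratio was thus between 9.64 and 12.6 in all 8 libraries, a narrower range than that of Nxnl1 itself, whose highest level was 2.63 times its lowest. The ratio was lower in rd10 P18 and rd10 P21 (9.64 to 10.7) than in WT P15 and rd10 P15 (11.5 to 12.6), without overlap. In bulk tissue, fewer cells of a type and less RNA per cell cannot be told apart.

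The 5 genes whose log2 CPM followed Nxnl1 most closely over the 8 libraries were Katnal2 (Pearson r = 0.986), Vopp1 (0.985), Sdc3 (0.984), Osbp2 (0.982) and Clstn1 (0.979), a description over libraries that share 4 groups. Vopp1, for example, was at 624 and 546 CPM in WT P15 and at 267 and 319 CPM in rd10 P21. Among the other 9 genes of the route, the closest was Slc16a1 (r = 0.977), followed by Pkm (0.797). Nxnl2, the second gene for a rod-derived factor, was at 145 and 143 CPM in WT P15, 103 and 128 CPM in rd10 P15, 131 and 83.3 CPM in rd10 P18 and 60.2 and 88.0 CPM in rd10 P21. Its libraries of rd10 P21 lay below those of WT P15, and its log2 fold change of -0.96 ± 0.25 was not called (edgeR adjusted p = 0.164).

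**Figure D2:**
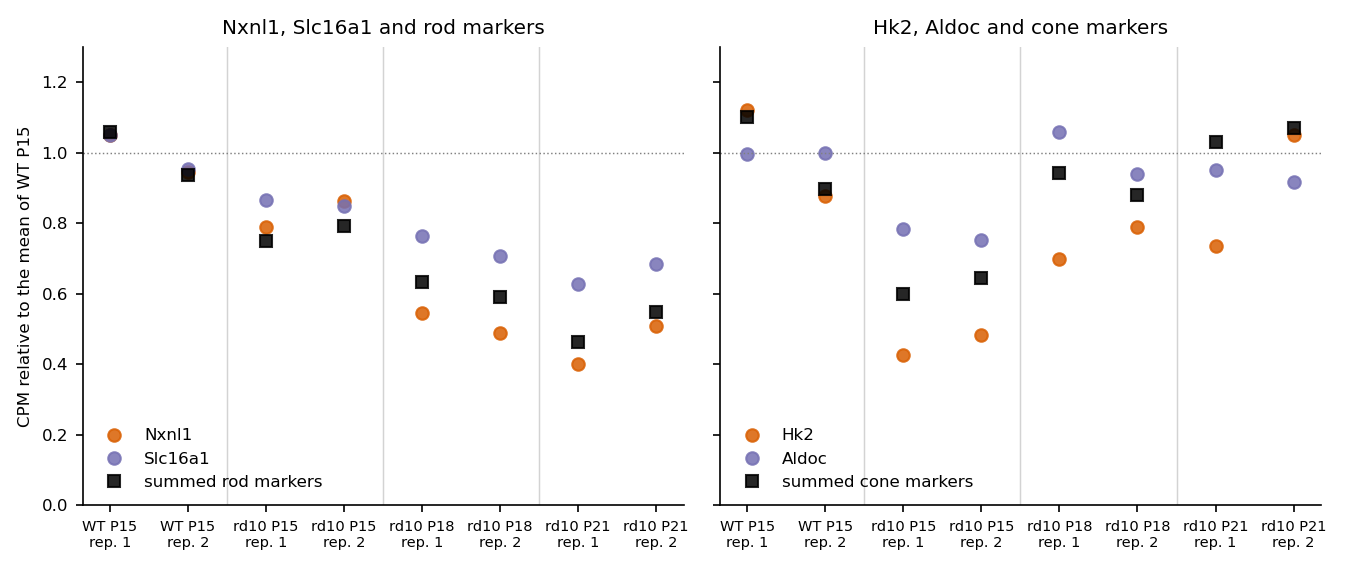
CPM of each library divided by the mean of WT P15 (vertical axis, from 0), for Nxnl1, Slc16a1 and the sum of 14 rod markers on the left, and for Hk2, Aldoc and the sum of 10 cone markers on the right. Nxnl1 reached 0.400 and 0.507 in rd10 P21, where the rod sum was at 0.462 and 0.548, and Hk2 was at 0.425 and 0.482 in rd10 P15, where the cone sum was at 0.600 and 0.645.

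Hk2 (ENSMUSG00000000628, chr6:82725025-82774454, minus strand, 20 exon blocks) encodes the hexokinase that phosphorylates glucose in photoreceptors. Hk2 stood at 574 and 448 CPM in WT P15, 217 and 246 CPM in rd10 P15, 357 and 403 CPM in rd10 P18 and 376 and 537 CPM in rd10 P21. The rd10 P15 libraries were the lowest, and the rd10 P21 libraries again overlapped with WT P15. Means were 511 ± 88.7, 232 ± 20.4, 380.1 ± 32.2 and 456 ± 114 CPM (SD, n = 2 each).

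In rd10 P15 against WT P15 the log2 fold change of Hk2 was -1.14 ± 0.20 (SE), as large in size as that of Nxnl1 at P21, with an adjusted p of 0.0634 by edgeR, which missed the threshold. DESeq2 called it (adjusted p = 6.87e-05), as did edgeR without the filter on low counts (0.0285) and with only the 4 libraries of these groups (0.0161). With a term for the Y-linked counts the value was -0.80 (edgeR adjusted p = 0.374), and in each of the older rd10 groups the library with Y-linked counts had the lower Hk2 level. At P18 the log2 fold change against WT P15 was -0.43 ± 0.20 (edgeR adjusted p = 0.323) and at P21 it was -0.16 ± 0.20 (adjusted p = 0.847). From rd10 P15 to rd10 P21, Hk2 differed by a log2 fold change of 0.98 ± 0.20, which did not pass (edgeR adjusted p = 0.105). With DESeq2 the adjusted p of this difference was 0.00103, and the fold was below the threshold.

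The summed level of cone markers was also lowest in rd10 P15. The 10 cone markers summed to 1841 and 1493 CPM in WT P15, 999 and 1075 CPM in rd10 P15, 1570.1 and 1468 CPM in rd10 P18 and 1724 and 1783 CPM in rd10 P21. Values of single markers varied: from rd10 P15 to rd10 P18 the mean of Gnb3, a G protein subunit also found in bipolar cells, went from 294 to 559 CPM and that of the opsin Opn1sw from 251 to 388 CPM, while that of the opsin Opn1mw was 101 and 104 CPM. The median log2 fold change of the 10 markers against WT P15 was -0.62 at P15 (10 of 10 below 0), -0.50 at P18 (8 of 10) and -0.01 at P21 (5 of 10). The cone arrestin Arr3 was the cone marker called, lower at P15 (log2 fold change -1.71, edgeR adjusted p = 0.015) and at P18 (-1.39, adjusted p = 0.015) and higher in rd10 P21 than in rd10 P15 (1.49). The part of cone or rod markers in the level of Hk2 was not tested. Genes closest to Hk2 over the 8 libraries were Gm40477 (Pearson r = 0.971), Cnnm4 (0.970), Rfx1 (0.969), Gm15587 (0.966) and Pex10 (0.965), and the closest gene of the route was Aldoc (0.738).

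Sequences upstream of 3 genes are shown because they are the 2 genes that differed most from WT P15, Nxnl1 and Hk2, and the lactate exporter Slc16a1, which followed Nxnl1. Each is the 250 bases before the RefSeq transcription start (GRCm38.p6), 5′ to 3′ on the strand of the gene, with capitals for the letters ACGTG on either strand, the core of hypoxia response elements. The windows are chr8:71566650-71566899 for Nxnl1, chr6:82774455-82774704 for Hk2 and chr3:104638414-104638663 for Slc16a1.
Nxnl1: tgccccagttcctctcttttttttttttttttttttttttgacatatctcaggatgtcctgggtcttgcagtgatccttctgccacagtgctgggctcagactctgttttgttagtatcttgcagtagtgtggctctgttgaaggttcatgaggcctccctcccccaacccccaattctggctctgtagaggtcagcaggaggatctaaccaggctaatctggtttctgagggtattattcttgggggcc
Hk2: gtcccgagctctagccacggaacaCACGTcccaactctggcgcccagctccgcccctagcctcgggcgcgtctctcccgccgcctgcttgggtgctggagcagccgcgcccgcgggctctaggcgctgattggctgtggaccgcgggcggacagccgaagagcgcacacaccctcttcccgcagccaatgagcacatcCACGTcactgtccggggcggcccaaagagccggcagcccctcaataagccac
Slc16a1: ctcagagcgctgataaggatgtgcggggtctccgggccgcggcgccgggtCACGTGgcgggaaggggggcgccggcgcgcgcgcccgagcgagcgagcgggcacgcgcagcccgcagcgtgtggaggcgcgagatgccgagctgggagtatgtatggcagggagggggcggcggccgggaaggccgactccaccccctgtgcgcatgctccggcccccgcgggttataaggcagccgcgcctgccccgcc
In these windows the letters stood 226 and 52 bases before the start of Hk2, and 200 bases before that of Slc16a1, where CACGTG reads as ACGTG on both strands. The window of Nxnl1 held none. Its RefSeq start was not found among the transcript starts of the gene models used for coordinates here, unlike those of Hk2 and Slc16a1. RefSeq promoters were found for 9 of the 10 genes (not Bsg), 14 promoters in all, and 5 of the 9 genes had ACGTG in at least 1 of them (Hk2, Pkm, Ldha, Slc2a1 and Slc16a1). By promoter this was 5 of 14, beside 16.6% of 32851 promoters of all genes. The letters TAATCC on either strand, bound by photoreceptor homeobox proteins such as CRX, were in a promoter of 3 of the 9 genes (Pfkp, Aldoc and Ldha). By promoter this was 3 of 14, beside 6.25% of all promoters. Genes with several promoters had more than 1 window to match, and a match of letters is not a measured binding site.

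Slc2a1, for glucose entry, and Slc16a1, for lactate exit, had fold changes of opposite sign, and neither was called. Slc2a1 (ENSMUSG00000028645, chr4:119108711-119137983, plus strand, 12 exon blocks), the glucose transporter of photoreceptors, glia and vessels, was at 239 and 241 CPM in WT P15, 303 and 299 CPM in rd10 P15, 328 and 334 CPM in rd10 P18 and 266 and 294 CPM in rd10 P21. All 6 rd10 libraries were above both WT P15 libraries, and rd10 P18 was highest. Its log2 fold change against WT P15 was 0.33 ± 0.12 (SE) at P15, 0.47 ± 0.12 at P18 and 0.23 ± 0.12 at P21, and edgeR's adjusted p was 0.32, 0.101 and 0.525. DESeq2 gave the P18 value an adjusted p of 0.0111, with the fold below the threshold. The 10 endothelial markers summed to 356 and 427 CPM in WT P15, between 421 and 467 CPM in rd10 P15, between 360.1 and 437 CPM in rd10 P18 and between 531 and 618 CPM in rd10 P21. Their log2 fold changes against WT P15 were mixed, with 6 of 10 above 0 at P15, 7 at P18 and 9 at P21 and medians of 0.58, 0.51 and 0.45. By edgeR 1 of them, Cldn5, a tight junction protein of vessels, was called, higher at P15 (log2 fold change 2.00) and P18 (1.69). DESeq2 called 4 of the 10 higher at P15, 1 at P18 and 1 at P21. Kdr had the highest level of the 10, with means of 229 CPM in WT P15 and 247 CPM in rd10 P15. Markers of lower level went from 8.32 to 18.1 CPM (Pecam1), 5.39 to 16.55 CPM (Cdh5) and 4.28 to 14.57 CPM (Tie1), while 4 of the 10 were below WT P15. The part of endothelial markers in the level of Slc2a1 was not tested.

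Slc16a1 (ENSMUSG00000032902, chr3:104638668-104658462, plus strand, 5 exon blocks) encodes the monocarboxylate transporter MCT1. It was at 327 and 298 CPM in WT P15, 270.1 and 265 CPM in rd10 P15, 238 and 221 CPM in rd10 P18 and 195 and 214 CPM in rd10 P21. No pair of groups overlapped, and each group lay below the one before. The log2 fold change against WT P15 was -0.22 ± 0.13 (SE) at P15, -0.44 ± 0.13 at P18 and -0.61 ± 0.13 at P21, with edgeR adjusted p values of 0.539, 0.127 and 0.0992, so none passed. With DESeq2 the adjusted p was 0.0297 at P18 and 0.0016 at P21, and the fold stayed below the threshold. Slc16a3, another monocarboxylate transporter, was at 68.4 and 68.5 CPM in WT P15 and 63.1 and 64.7 CPM in rd10 P15. In rd10 P18 Slc16a3 was at 89.3 and 123 CPM, above WT P15, and in rd10 P21 at 59.9 and 69.2 CPM, and it was not called. The pigment epithelium markers given above were higher in rd10 P15 than in WT P15 and lower in rd10 P18 and P21 than in rd10 P15, and their part in the level of Slc16a1 was not tested.

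Bsg (ENSMUSG00000023175, chr10:79704491-79711969, plus strand, 7 exon blocks), the partner of MCT1 and the receptor of the Nxnl1 product, was at 515 and 555 CPM in WT P15, 749 and 492 CPM in rd10 P15, 698 and 533 CPM in rd10 P18 and 820.0 and 525 CPM in rd10 P21. Replicate 1 was the higher library in each rd10 group, and replicate 2 was close to WT P15. Log2 fold changes against WT P15 were 0.21, 0.20 and 0.33, each with an SE of 0.26, and edgeR's adjusted p was at least 0.709. The counts are per gene, so that the retina-specific long form of basigin, the one that binds the Nxnl1 product, could not be separated from the common form.

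**Figure D3:**
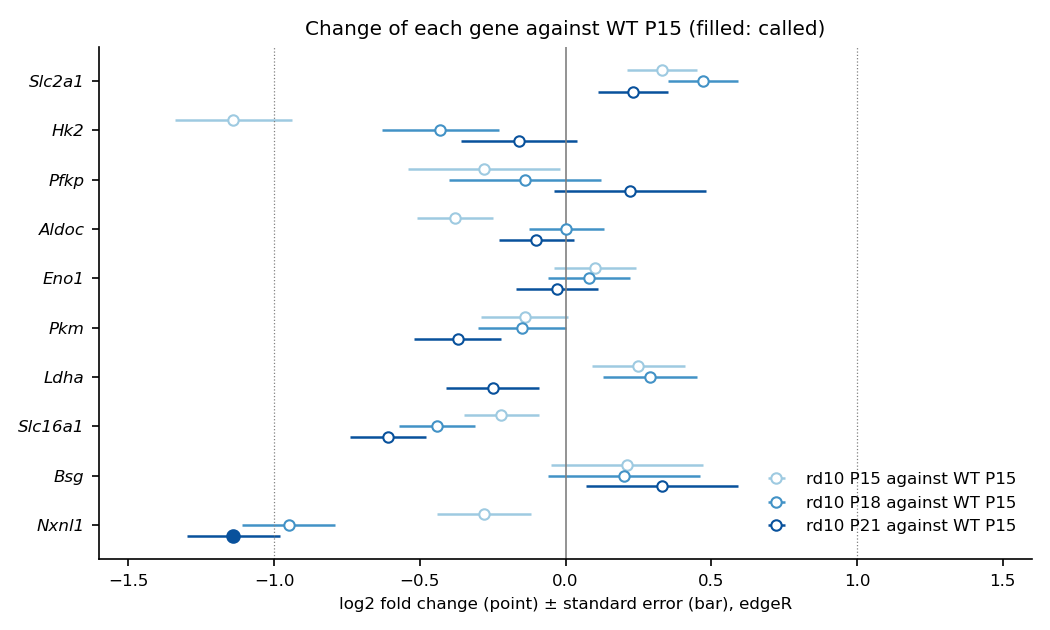
Log2 fold change of each gene in rd10 P15, P18 and P21 against WT P15 (points, horizontal axis) with its standard error (bars) from edgeR. Filled points are called, which holds for Nxnl1 at P21, and dotted lines mark a log2 fold change of 1 in either direction.

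None of the 5 enzymes between hexokinase and lactate was called against WT P15. Pfkp (ENSMUSG00000021196, chr13:6579768-6648777, minus strand, 24 exon blocks), the platelet-type phosphofructokinase at the committed step, was at 864 and 943 CPM in WT P15, 756 and 727 CPM in rd10 P15, 564 and 1072 CPM in rd10 P18 and 1037 and 1072 CPM in rd10 P21. The 2 libraries of rd10 P18 were the lowest and near the highest of all 8. Against WT P15 its log2 fold changes of -0.28, -0.14 and 0.22 (SE 0.26 each) had edgeR adjusted p values of at least 0.726. Its exons share 748 bases with Pitrm1 on the other strand, and whether the counting used strand is not given in the sources used here.

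Aldoc (ENSMUSG00000017390, chr11:78322968-78327781, plus strand, 9 exon blocks), an aldolase of photoreceptors and glia, was at 459 and 462 CPM in WT P15, 361 and 347 CPM in rd10 P15, 490.3 and 433 CPM in rd10 P18 and 438 and 422 CPM in rd10 P21. As with Hk2, the rd10 P15 libraries were below the other 6. The log2 fold change of -0.38 ± 0.13 (SE) at P15 was not called (edgeR adjusted p = 0.27). At P18 and P21 the values were close to 0, at 0.0031 and -0.10.

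Eno1 (ENSMUSG00000063524, chr4:150236721-150248879, plus strand, 12 exon blocks), the main enolase, stayed within 1.22 times from its lowest to its highest library, the narrowest range of the 10 genes. It was at 2049 and 1961 CPM in WT P15, 2224 and 2060 CPM in rd10 P15, 2280.3 and 1969 CPM in rd10 P18 and 2073 and 1863 CPM in rd10 P21, and edgeR's adjusted p against WT P15 was at least 0.811. A near-identical copy, Eno1b, was at 16.7 CPM in WT P15 replicate 1 and between 147 and 259 CPM in the other 7 libraries. The copy thus held 0.809% of the summed level of both genes in that library and between 7.30% and 10.2% in the others, and reads can be split between the copies by the counting, which makes both levels uncertain. The sum of both was 2066 and 2138 CPM in WT P15 and between 2010 and 2539 CPM in the 6 rd10 libraries.

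Pkm (ENSMUSG00000032294, chr9:59656368-59679375, plus strand, 17 exon blocks), pyruvate kinase, was at 3425 and 3234 CPM in WT P15, 3015 and 3039 CPM in rd10 P15, 3336 and 2658 CPM in rd10 P18 and 2447 and 2695 CPM in rd10 P21. The libraries of rd10 P21 and rd10 P15 were below those of WT P15, and the largest log2 fold change, -0.37 ± 0.15 (SE) at P21, was not called (edgeR adjusted p = 0.378). Its 2 splice forms, of which photoreceptors are known to use the M2 form, are not separated by gene counts. It also shares 767 exonic bases with the transcript Gm49759, which held 18876 counts over the 8 libraries.

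Ldha (ENSMUSG00000063229, chr7:46841475-46855627, plus strand, 11 exon blocks), the lactate dehydrogenase subunit that favours lactate production, was at 1095 and 1010 CPM in WT P15, 1262 and 1242 CPM in rd10 P15, 1469 and 1097 CPM in rd10 P18 and 858 and 906 CPM in rd10 P21. Levels in rd10 P15 and P18 were above both WT P15 libraries and those of rd10 P21 were below them. The separation at P18 was slight, with rd10 P18 replicate 2 at 1097 CPM and WT P15 replicate 1 at 1095 CPM. The log2 fold change at P18 was 0.29 with all libraries and 0.06 without rd10 P18 replicate 1. The difference between rd10 P21 and rd10 P18, a log2 fold change of -0.54 ± 0.16 (SE), had an unadjusted p of 0.00925 and an edgeR adjusted p of 0.429. None of the comparisons of Ldha with WT P15 was called (edgeR adjusted p at least 0.407).

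Per kilobase of exon, averaged over the 8 libraries, Pkm was the highest of the 10 at 596 CPM per kb, followed by Eno1 at 383, Ldha and Bsg at 337 each, Aldoc at 131, Nxnl1 at 103, Slc2a1 at 82.1, Hk2 at 66.1, Pfkp at 65.6 and Slc16a1 at 57.3. The neighbours Ldha and Bsg, and Hk2 and Pfkp, did not differ beyond the spread over libraries, with Hk2 ranging from 36.4 to 96.1 CPM per kb and Pfkp from 42.1 to 80.0. In WT P15 Nxnl1 stood at 147 CPM per kb, close to Aldoc at 141, and in rd10 P21 at 66.6 beside Aldoc at 132.

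Among 83 other genes of glucose use in 7 lists, 3 were called by edgeR in at least 1 comparison: Hkdc1 and Hk3 of the glycolytic enzymes and Slc16a6 of the monocarboxylate transporters. Of the 18 other glycolytic enzymes tested, 0 were called at P15 against WT P15 (3 had an unadjusted p under 0.05 and DESeq2 called Hkdc1), 2 higher at P18 and 1 higher at P21, and their median log2 fold change was -0.08, 0.21 and -0.04. The 2 with the highest level per kb, Aldoa (679) and Pgam1 (344), were not called, with log2 fold changes of 0.20 and -0.02 at P18. Gapdh, with near-identical copies among which reads can be split, was at 15.6 CPM per kb, so its place in this order is uncertain. Among the 12 other monocarboxylate transporters edgeR called 0 at P15 (3 had an unadjusted p under 0.05 and DESeq2 called 0), 1 lower at P18 and 1 lower at P21, with medians of 0.50, 0.11 and 0.21.

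Hkdc1, a hexokinase-like enzyme, rose. It was at 9.94 and 11.8 CPM in WT P15, 22.2 and 21.6 CPM in rd10 P15, 27.9 and 37.3 CPM in rd10 P18 and 29.8 and 28.9 CPM in rd10 P21. Every rd10 library was above both WT P15 libraries, and the log2 fold change was 1.01 ± 0.20 (SE) at P15 (edgeR adjusted p = 0.0737), 1.58 ± 0.20 at P18 (adjusted p = 0.0135) and 1.43 ± 0.20 at P21 (adjusted p = 0.0351). Leaving out a WT P15 library ended the call at P18 (edgeR adjusted p = 0.127 without replicate 1 and 0.0563 without replicate 2). With only the 4 libraries compared, the P18 call of Hkdc1 was lost as well (edgeR adjusted p = 0.0601). At P21 the call ended in 6 of 8 omissions, with adjusted p of up to 0.214, and with a term for the Y-linked counts (0.0554).

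Slc16a6, a monocarboxylate transporter, fell. Per kilobase of exon it was the highest of its list at 23.8 CPM per kb, ahead of Slc16a3 at 14.2. It was at 210.0 and 182 CPM in WT P15, 101 and 121 CPM in rd10 P15, 68.9 and 79.3 CPM in rd10 P18 and 77.9 and 87.5 CPM in rd10 P21. All rd10 libraries were below WT P15, with a log2 fold change of -0.82 ± 0.15 (SE) at P15 (edgeR adjusted p = 0.0697), -1.40 ± 0.16 at P18 (adjusted p = 0.00809) and -1.25 ± 0.16 at P21 (adjusted p = 0.0332). The P18 call was kept in 7 of 8 omissions of a library and lost without WT P15 replicate 1 (edgeR adjusted p = 0.0811), and the P21 call was lost in 6 of 8, with adjusted p of up to 0.198. The P21 call was also lost with a term for the Y-linked counts (edgeR adjusted p = 0.0539).

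Hk3, a hexokinase of myeloid cells, was at 0.813 and 0.453 CPM in WT P15, 0.477 and 0.282 CPM in rd10 P15, 4.65 and 4.76 CPM in rd10 P18 and 1.63 and 1.12 CPM in rd10 P21. Both rd10 P18 libraries stood above the other 6, and the gene had between 8 and 156 counts in a library. It was called at P18 against WT P15 (log2 fold change 2.89 ± 0.56 (SE), edgeR adjusted p = 0.045), a call kept in 1 of 8 omissions of a library with adjusted p of up to 0.199. It was also lost with a term for the Y-linked counts (edgeR adjusted p = 0.103) and with only the 4 libraries compared (0.0814). The 10 microglia markers summed to 76.2 and 86.1 CPM in WT P15, 108 and 105 CPM in rd10 P15, 271 and 263 CPM in rd10 P18 and 390.0 and 203 CPM in rd10 P21. Their part in the level of Hk3 was not tested.

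In the remaining 5 lists, with 50 genes tested, edgeR called 0 genes against WT P15 at P15, P18 and P21, where 5, 10 and 7 genes had an unadjusted p under 0.05 and DESeq2 called 0, 1 and 1. Of all 20457 genes, 2523, 3563 and 2416 had such a p, and DESeq2 called 438, 955 and 573. The 9 glucose transporters tested besides Slc2a1, with Slc2a3 (17.8 CPM per kb) and Slc2a13 (7.08) highest, had median log2 fold changes of 0.17, 0.25 and 0.21 at P15, P18 and P21. The 17 genes for regulators and pyruvate entry, with the pyruvate dehydrogenase subunits Pdha1 (34.4) and Pdhb (31.6) highest, had medians of 0.00, 0.09 and -0.04, and DESeq2 called Pfkfb2 at P18, a kinase that sets the level of the activator of phosphofructokinase (log2 fold change -1.08 ± 0.22 (SE), edgeR adjusted p = 0.0553). The 9 genes of the pentose phosphate and polyol branches, with Tkt (49.5) and Taldo1 (43.2) highest, had medians of 0.16, 0.17 and -0.01. The 12 tested genes of the hypoxia-inducible factors and their targets, with Hif1a (124) and Ddit4 (88.3) highest, had medians of -0.01, 0.16 and 0.05, and DESeq2 called Adm, the peptide adrenomedullin, at P21 (log2 fold change 2.78, edgeR adjusted p = 0.137). The other genes of the basigin family and Nxnl2, with Nptn (26.4) second to Nxnl2 (31.5), had medians of -0.32, -0.15 and -0.03.

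**Figure D4:**
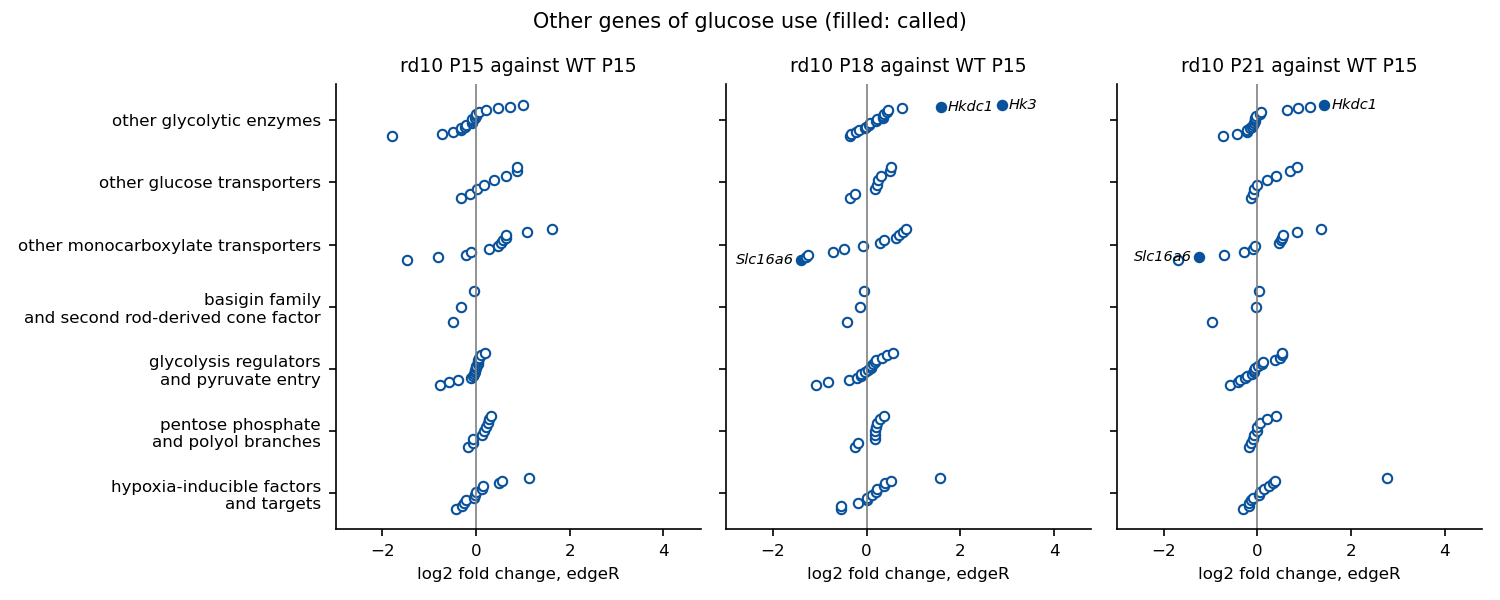
Log2 fold change (edgeR, horizontal axes) of 78 of the 80 tested genes of glucose use outside the 10, by list, in rd10 P15, P18 and P21 against WT P15. Genes with a highest level under 1 CPM are left out, filled points are called, and called genes are named: Hkdc1 and Hk3 above 0 and Slc16a6 below 0.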

How the data were processed

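RNA from 8 whole mouse retinas was purified on poly(T) beads and sequenced by the authors on an Illumina NovaSeq instrument. The deposited table holds raw read counts per Ensembl gene, without normalization. The submitters' processing notes name HISAT2; for the counting tool, its strand setting, the genome build and the annotation, the sources used here give nothing. Symbols and positions came from GENCODE M21 (GRCm38), which names 52081 of 57010 identifiers, so gene models can differ from those of the authors. Unnamed identifiers held 0.635% of the counts. All 8 columns were used. Where a symbol had several identifiers, the one with most counts was taken. Promoter sequences came from RefSeq (GRCm38.p6).

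The members and gene lists were chosen with earlier results of these data known. Named genes were the 10 members, each gene of the other lists called in a comparison, the 2 highest per length of each list of glucose use, and the 5 genes most correlated with Hk2 and with Nxnl1. Pfkfb2, Adm, Gapdh and the other marker genes named were picked after their values were seen, unless called.

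Counts were filtered by filterByExpr (minimum count 10, minimum total count 15, 20457 genes), scaled by TMM and fitted with edgeR 4.0.16 (limma 3.58.1, R 4.3.3; robust quasi-likelihood, 4 groups, all 8 libraries). P-values were adjusted by Benjamini-Hochberg. The SE is the log2 fold change divided by the square root of F. Log2 CPM used a prior count of 2. With 2 libraries per group an exact two-sided permutation test could not go below 0.333 and was not used. Residual degrees of freedom were 4. The fits were tested on simulated data. Alternatives were DESeq2 1.42.0, scaling by RLE or by library size, no filter, only the 4 libraries compared, a replicate block, a term for Y-linked counts, no fold threshold, each library left out, and Eno1 summed with Eno1b. Chi-square per gene between the 2 libraries of a group was between 22.9 and 96.6, so the 2 libraries of a group were not copies of each other. The methods call the replicates behind the study's quantitation biological, in a statement that does not name these libraries. Figures were drawn with matplotlib 3.10.9.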

Additional observations from a re-analysis of the deposited data

Results flagged for a closer look

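Among the 10 genes and the other genes of glucose use, 1 difference between rd10 ages was called. Hk3 was higher in rd10 P18 than in rd10 P15 by a log2 fold change of 3.61 ± 0.58 (SE, edgeR adjusted p = 0.0464), so its difference from WT P15 was not the same at both ages. Its mean level was 0.380 CPM in rd10 P15 and 4.71 CPM in rd10 P18. The call was lost in 5 of 8 omissions of a library, with adjusted p of up to 0.284 without rd10 P15 replicate 2. With 2 libraries in each group, no single library could be tested for standing apart from its group, and the pair with the largest difference was rd10 P18.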

How the results depend on the processing

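The number of the 10 genes called in rd10 P15 against WT P15 was 0 and became 1 (Hk2) with DESeq2, without the filter on low counts and with only the 4 libraries compared. In rd10 P18 against WT P15 it was 0, became 1 (Nxnl1) by adjusted p alone, and lay between 0 and 1 when a library was left out, being 1 without rd10 P18 replicate 1. In rd10 P21 against WT P15 it was 1 (Nxnl1), fell to 0 with a replicate block and with a term for Y-linked counts, and lay between 0 and 1 when a library was left out. It stayed at 0 among rd10 ages under every alternative run. The cause of these changes was not tested.

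Same-numbered libraries correlated between -0.0245 and 0.0594 in their deviations from group means. Over all genes these values show no strong effect shared by replicate number, and they cannot exclude a pairing of the retinas. With the replicate block the edgeR adjusted p of Nxnl1 at P21 was 0.0641, that of Hkdc1 and of Slc16a6 at P21 0.0579 each and that of Hk3 at P18 0.0559. Over all genes, 303 were called in rd10 P18 against WT P15, 1250 without rd10 P18 replicate 2 and 250 without replicate 1.

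Of 210 values of 30 fold changes against WT P15 under 7 other settings, 11 changed sign, all of genes not called. With the term for Y-linked counts these were Pfkp at P15 (0.20) and P18 (0.04), Aldoc at P18 (-0.06), Eno1 at P15 (-0.09) and P18 (-0.01), and Bsg at P15 (-0.30) and P18 (-0.07). Aldoc at P18 was -0.0015 with DESeq2 and with RLE size factors. With library size only, Aldoc and Eno1 at P21 were 0.01 and 0.09; that scaling moved the median of all genes to 0.135 at P18 and 0.112 at P21, and the other members kept their direction.

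When 1 library was left out, 11 of 240 values changed sign. Hk2 at P21 lay between -0.44 and 0.07 (above 0 without WT P15 replicate 1 or rd10 P21 replicate 1), and Pkm at P18 between -0.32 and 0.0028 (without rd10 P18 replicate 2). Eno1 at P21 lay between -0.11 and 0.06 (without WT P15 replicate 1 or rd10 P21 replicate 2). Without rd10 P18 replicate 1 the sign changed for Pfkp (-0.68 to 0.25 over the omissions), Aldoc (-0.09 to 0.09), Eno1 (-0.03 to 0.19) and Bsg (-0.0043 to 0.38) at P18. Bsg ranged from -0.12 to 0.49 at P15 and from -0.03 to 0.62 at P21, below 0 without replicate 1 of the rd10 group concerned.

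Summing Eno1 with Eno1b moved its group means to 2102, 2330, 2359 and 2130 CPM. Within the 7 lists of other genes of glucose use, DESeq2 called 1 gene where edgeR called 0 in 5 combinations of a list and a comparison. With 2 libraries per group, differences under the threshold were not shown to be absent.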
